A study of Homo sapiens with 8 samples.

Results

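CCNE1, CDC25A, CDK4 and CCND1 encode 4 proteins that carry cells from G1 into S phase. Their mRNA levels were measured in THP-1 cells after 5 h with one of 2 compounds that block p21-activated kinases (PAKs), or with DMSO. All probes whose platform annotation names one of these symbols were taken. Each gene had 1 probe, so the description rests on 4 of 16098 named probes and 4 of 14884 named genes (53617 probes in all). The probes are 16860418 for CCNE1, 16953279 for CDC25A, 16766683 for CDK4 and 16728261 for CCND1.

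The series concerns the kinase PAK1 as a point of attack in myeloid leukaemia. THP-1 is an established cell line from a monocytic leukaemia with an MLL-AF9 fusion, which every group shares. FRAX-597 competes with ATP at group I PAKs and was given at 2 µg/mL to 2 samples. IPA-3, an allosteric PAK1 inhibitor that does not compete with ATP, was given at 6 µg/mL to 2 samples. DMSO in equal volume was given to 4 samples, and every sample was harvested at 5 h. A single line at a single time point and dose of each compound was studied. No label states that replicates were separate cultures, and the p-values below therefore reflect the spread among these arrays only, possibly a technical one. Arrays carry no read depth, and their number limits the precision.

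Progress through G1 is a relay. D-type cyclins such as cyclin D1 (CCND1) bind CDK4 or CDK6, and the complexes phosphorylate the retinoblastoma protein RB. RB then releases E2F transcription factors, which switch on genes that include CCNE1 and CDC25A. Cyclin E1 (CCNE1) activates CDK2, and the phosphatase CDC25A removes inhibitory phosphates from CDK2, so both act later than cyclin D1 and CDK4. CDK4 and CDC25A are also known as targets of the transcription factor MYC.

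The DNA around the start sites is shown because CCNE1 and CDC25A are known as E2F-driven genes and CDK4 as a MYC target. RefSeq (GRCh38.p14) gave a window from 250 bases before to 50 after the start of 3 of the 4 genes. It is chr19:29811741-29812040 on the plus strand for CCNE1, chr3:48188368-48188667 on the minus strand for CDC25A and chr12:57752261-57752560 on the minus strand for CDK4. Capitals mark the words searched on both strands, which were the E2F words TTTCCCGC, TTTCGCGC, TTTGCCGC and TTTGGCGC, the E-box CACGTG (the word MYC is known to bind) and the GC box GGGCGG. No matches overlapped one another in these windows.
CCNE1: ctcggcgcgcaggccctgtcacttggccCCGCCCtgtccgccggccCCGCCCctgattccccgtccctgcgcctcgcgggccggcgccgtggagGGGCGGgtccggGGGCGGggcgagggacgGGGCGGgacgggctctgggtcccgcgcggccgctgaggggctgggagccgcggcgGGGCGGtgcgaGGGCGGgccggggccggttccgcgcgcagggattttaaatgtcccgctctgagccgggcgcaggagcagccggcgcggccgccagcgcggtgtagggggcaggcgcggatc
CDC25A: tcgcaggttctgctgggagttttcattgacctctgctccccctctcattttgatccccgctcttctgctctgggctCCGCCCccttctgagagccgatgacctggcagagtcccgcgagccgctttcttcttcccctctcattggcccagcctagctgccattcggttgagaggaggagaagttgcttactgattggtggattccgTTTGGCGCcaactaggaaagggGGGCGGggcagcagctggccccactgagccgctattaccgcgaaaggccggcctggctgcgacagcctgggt
CDK4: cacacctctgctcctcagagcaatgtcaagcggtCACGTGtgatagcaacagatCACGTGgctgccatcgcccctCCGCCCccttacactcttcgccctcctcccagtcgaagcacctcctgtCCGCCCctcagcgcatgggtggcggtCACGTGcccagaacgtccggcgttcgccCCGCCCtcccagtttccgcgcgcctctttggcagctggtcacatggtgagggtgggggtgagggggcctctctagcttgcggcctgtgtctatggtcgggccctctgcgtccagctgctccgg
CDC25A held 1 E2F word, TTTGGCGC, whose first base lies at -44 from the start, together with 2 GC boxes. CDK4 held 3 E-boxes, first bases at -216, -196 and -101, and 3 GC boxes. CCNE1 held 7 GC boxes and none of the other words. Among 35116 promoters of the same length, 3.31% held an E2F word, 7.26% an E-box and 45% a GC box. These matches describe letters only.

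The 8 arrays lay on 2 scales. The medians over all probes lay between 6.00 and 6.05 for FRAX-597 and DMSO 3 and 4, the second array set, and between 5.51 and 5.55 for IPA-3 and DMSO 1 and 2, the first array set. The sets carry no label. Each compound was therefore compared with the 2 DMSO arrays on its scale, and levels are not compared between probes. For the genes studied, levels of the 2 sets are set side by side only for the DMSO pairs, beside the shift of all genes between them. The marker ranges that follow run over all 8 arrays, so they include the difference in scale. All 11 measured monocytic and myeloid markers, CD14, LYZ and CSF1R among them, lay above the lower quartile of all probes on every array, with mean log2 levels per array from 9.50 to 9.90. Markers of other cell types were few here: the T cell markers CD2 and CD5 averaged 5.85 to 6.62 per array, the B cell factor PAX5 5.96 to 8.36, the erythroid factor KLF1 5.80 to 7.17 and 4 epithelial markers 6.59 to 6.91. The 2 measured fibroblast markers, DCN and LUM, averaged 3.09 to 4.13. CD2, CD5, PAX5, KLF1 and 3 of the 4 epithelial markers also lay above the lower quartile on every array, and DCN and LUM did not. Lying above that quartile therefore does not set the myeloid markers apart. PAX5 averaged 7.27 in FRAX-597 and 7.55 in DMSO 3 and 4, and 6.15 in IPA-3 and 6.13 in DMSO 1 and 2.

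CCNE1 had log2 levels of 7.58 and 8.36 on the 2 FRAX-597 arrays, against 9.13 and 8.62 on DMSO 3 and DMSO 4. Both FRAX-597 arrays lay below both DMSO arrays, and FRAX-597 1 lay furthest below. The groups averaged 7.97 ± 0.55 with FRAX-597 and 8.88 ± 0.36 with DMSO (SD, n = 2 each). The log2 change was -0.91 (SE 0.26, 95% interval -1.52 to -0.30), a level 0.533 times that of DMSO. It did not pass the test over all genes (limma adjusted p = 0.398; unadjusted 0.0094). With the second array set fitted alone, the SE was 0.33 and the unadjusted limma p 0.043.

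CDC25A had log2 levels of 7.67 and 8.31 with FRAX-597, against 8.85 and 8.69 in DMSO 3 and DMSO 4. Again both FRAX-597 arrays lay under both DMSO arrays and FRAX-597 1 was the lowest. The means were 7.99 ± 0.45 with FRAX-597 and 8.77 ± 0.11 with DMSO (SD, n = 2 each). The log2 change was -0.78 (SE 0.21, 95% interval -1.28 to -0.28), or 0.583 times the DMSO level. It missed the threshold as well (limma adjusted p = 0.363; unadjusted 0.0076). Fitting the second array set alone gave an SE of 0.25 and an unadjusted limma p of 0.028.

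**Figure D1:**
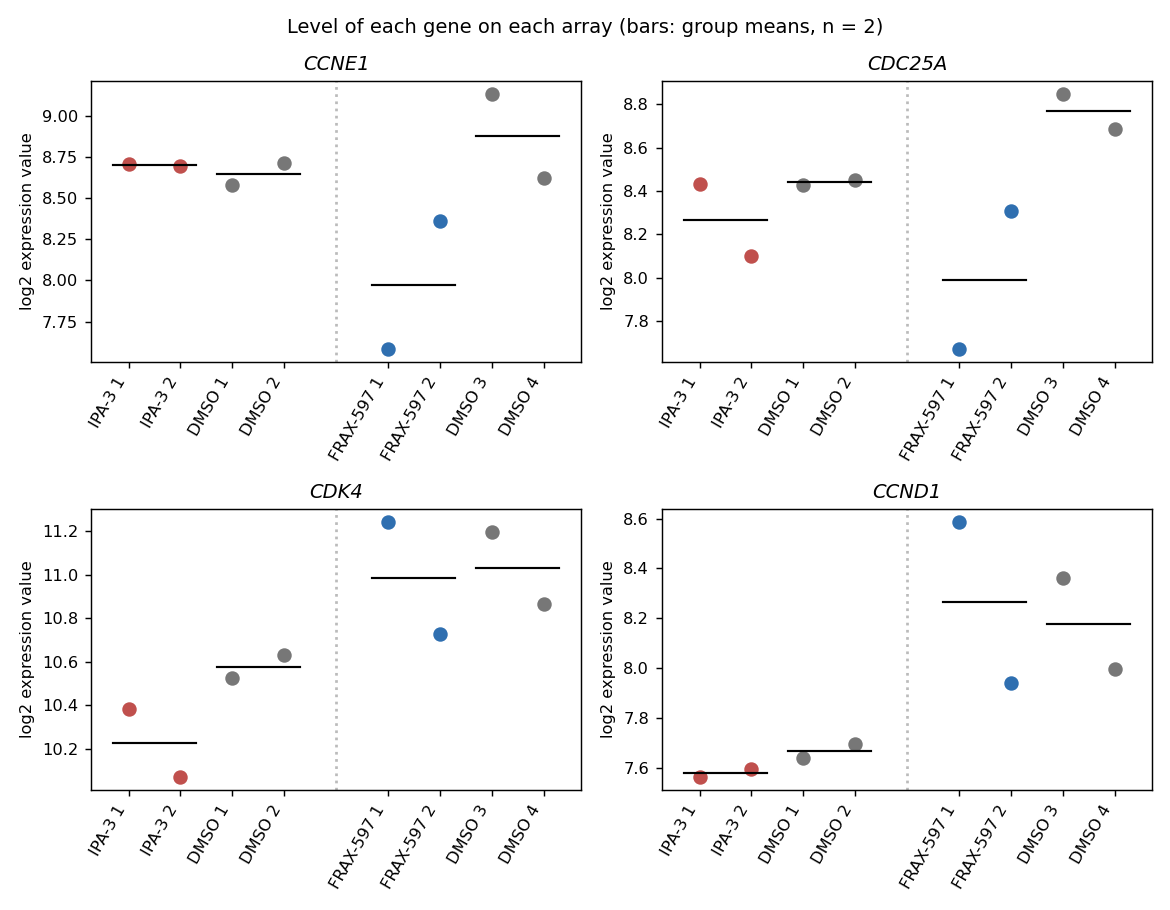
Log2 expression value (vertical axis, a separate range for each gene) of CCNE1, CDC25A, CDK4 and CCND1 on each of the 8 arrays; points are arrays, bars are means of 2 arrays, and the dotted line separates the 2 array sets. Both FRAX-597 points lie under both DMSO points for CCNE1 and CDC25A, while for CDK4 and CCND1 the FRAX-597 and DMSO points interleave.

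The cyclin D1 to CDK4 pair showed no such separation. CDK4 had log2 levels of 11.25 and 10.73 with FRAX-597, against 11.20 and 10.87 in DMSO 3 and DMSO 4. The FRAX-597 arrays lay on either side of the DMSO arrays. Its change on the log2 scale was -0.04 (SE 0.20, 95% interval -0.52 to 0.43; limma adjusted p = 0.998).

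CCND1 had log2 levels of 8.59 and 7.94 with FRAX-597, against 8.36 and 7.998 in DMSO 3 and DMSO 4, and the groups likewise interleaved. Its log2 change was 0.08 (SE 0.22, 95% interval -0.42 to 0.59; limma adjusted p = 0.998). For both genes the interval leaves room for a change of either sign, and the CCNE1 estimate of -0.91 lay outside it. Both intervals overlap that of CCNE1 (-1.52 to -0.30), and the genes were not tested against each other.

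Over all 14884 genes limma called 23 for FRAX-597, which is 0.155% (0.121% higher and 0.0336% lower), and 0 of the 4 genes were among them. That count was 227 without FRAX-597 2, 20 without FRAX-597 1 and 2 to 7 without any other single array. An unadjusted p under 0.05 was found for 2 of the 4, CCNE1 and CDC25A, and for 7.66% of all genes. Both arrays lay below both DMSO arrays for the same 2 genes and for 17.8% of all genes, and above them for 0 of the 4 and 13% of all genes. By size, 0.128% of all genes had a change further below 0 than CCNE1 and 0.255% one further below than CDC25A. The 4 genes were chosen with earlier results of these data known, so nothing is read from these shares.

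With IPA-3 none of the 4 genes passed, and CDK4 lay furthest from its controls. CCNE1 had log2 levels of 8.71 and 8.70 with IPA-3, against 8.58 and 8.71 in DMSO 1 and DMSO 2. The IPA-3 arrays lay within the range of the DMSO arrays. The log2 change was 0.06 (SE 0.26, 95% interval -0.55 to 0.67; limma adjusted p = 0.993).

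CDC25A had log2 levels of 8.43 and 8.10 with IPA-3, against 8.43 and 8.45 in DMSO 1 and DMSO 2. IPA-3 1 lay beside the DMSO arrays and IPA-3 2 alone was lower. The change came to -0.17 (SE 0.21, 95% interval -0.68 to 0.33; limma adjusted p = 0.923). It was -0.0077 without IPA-3 2 and -0.34 without IPA-3 1.

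CDK4, the kinase partner of cyclin D1, was at 10.38 and 10.07 with IPA-3, against 10.53 and 10.63 in DMSO 1 and DMSO 2. Both IPA-3 arrays lay below both DMSO arrays, with means of 10.23 ± 0.22 for IPA-3 and 10.58 ± 0.07 for DMSO (SD, n = 2 each). The log2 change was -0.35 (SE 0.20, 95% interval -0.83 to 0.13), a level 0.784 times that of DMSO, and did not pass (limma adjusted p = 0.756). It was -0.19 without IPA-3 2 and -0.51 without IPA-3 1. By size, 4.60% of all genes had an IPA-3 change further below 0, against 19.3% for CDC25A, 34.8% for CCND1 and 68.3% for CCNE1.

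CCND1 was at 7.56 and 7.60 with IPA-3, against 7.64 and 7.70 in DMSO 1 and DMSO 2. The IPA-3 arrays were the lower ones here too, by a small margin. The mean difference was -0.09 (SE 0.22, 95% interval -0.59 to 0.42; limma adjusted p = 0.977).

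For IPA-3 limma called 5 of 14884 genes (0.0336%; 0.0269% higher and 0.00672% lower) and 0 of the 4. That count was 24 without either FRAX-597 array, 2 without DMSO 3 or DMSO 4 and 0 without any single array of the first set. In this fit the number with an unadjusted p under 0.05 was also 0 of the 4, against 7.21% of all genes. CDK4 alone of the 4 went under 0.05 in other fits. Its unadjusted limma p was 0.037 with the first set fitted alone, 0.027 with a replicate block in the second set and 0.0455 with pooled DMSO arrays. The adjusted p was 0.308, 0.291 and 0.546 in the same order. Those fits had 2244, 2093 and 843 of 14884 genes under 0.05. Both IPA-3 arrays lay below both DMSO arrays for CDK4 and CCND1 and for 28.3% of all genes, and above them for 0 of the 4 and 19.3% of all genes.

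**Figure D2:**
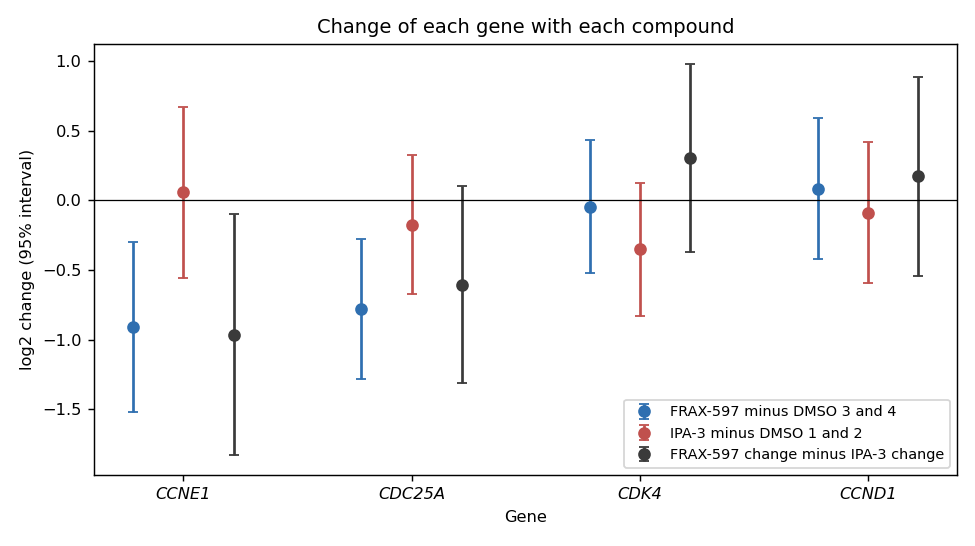
Log2 change (vertical axis, 95% interval as bars) of each gene with FRAX-597, with IPA-3 and the difference between these changes, from the limma fit of 8 arrays. The FRAX-597 intervals of CCNE1 (-1.52 to -0.30) and CDC25A (-1.28 to -0.28) lie below 0, the IPA-3 intervals of all 4 genes include 0, and none of the 12 adjusted p-values passes.

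The compounds were then compared with each other as the FRAX-597 change minus the IPA-3 change. Both were given for 5 h but at different doses, 2 µg/mL of FRAX-597 and 6 µg/mL of IPA-3. CCNE1 had a difference of -0.96 (SE 0.37, 95% interval -1.83 to -0.10; limma adjusted p = 0.776; unadjusted 0.033). CDC25A had a difference of -0.60 (SE 0.30, 95% interval -1.31 to 0.10; adjusted p = 0.844). For CDK4 it was 0.31 (95% interval -0.37 to 0.98; adjusted p = 0.944), and for CCND1 0.17 (95% interval -0.54 to 0.89; adjusted p = 0.974). Without FRAX-597 1 the difference was -0.58 for CCNE1, -0.28 for CDC25A, 0.05 for CDK4 and -0.15 for CCND1. Without FRAX-597 2 it was -1.35, -0.92, 0.57 and 0.50 in the same gene order. None of the 4 differences passed, and limma called 2 of 14884 genes (0.0134%) in this comparison, both higher. That count was 27 without FRAX-597 2, 12 without FRAX-597 1, 4 without DMSO 4, 2 without DMSO 3 and 0 without any single array of the first set. An unadjusted p under 0.05 was found for CCNE1 alone among the 4, and for 6.11% of all genes (3.43% higher and 2.67% lower). The difference was below 0 for 2 of the 4 genes and for 48.4% of all genes. Arrays of the compounds lay on opposite sides of their DMSO arrays for 0 of the 4 and 5.91% of all genes. The intervals are too wide to say that the compounds act alike on any of these genes.

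Array by array, the FRAX-597 values depended on which array was read. FRAX-597 1 minus DMSO 3 was -1.55 for CCNE1 and FRAX-597 1 minus DMSO 4 was -1.04, whereas FRAX-597 2 gave -0.77 and -0.27 against the same controls. For CDC25A the FRAX-597 1 pairs gave -1.18 and -1.02 and the FRAX-597 2 pairs -0.54 and -0.38. All 8 of these pair differences were below 0, and those of FRAX-597 1 were the larger for both genes.

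CDK4 and CCND1 differed between the FRAX-597 arrays in the other direction. FRAX-597 1 gave 0.05 and 0.38 for CDK4 against DMSO 3 and DMSO 4, and FRAX-597 2 gave -0.47 and -0.14. CCND1 gave 0.23 and 0.59 on FRAX-597 1 and -0.42 and -0.06 on FRAX-597 2. The sign of either gene's change thus followed the array.

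Leaving out FRAX-597 1 took the CCNE1 change to -0.52 (limma adjusted p = 0.592) and that of CDC25A to -0.46 (adjusted p = 0.559). Leaving out FRAX-597 2 took CCNE1 to -1.30 (adjusted p = 0.0401) and CDC25A to -1.10 (adjusted p = 0.0344). In both cases the lone FRAX-597 array is assumed to vary like the other groups. Over 17 alternatives the adjusted p ran from 0.0401 to 1 for CCNE1 and from 0.0344 to 1 for CDC25A, with a change below 0 in each. CCND1 turned to -0.24 without FRAX-597 1 and to -0.10 without DMSO 4, and was 0.41 without FRAX-597 2. CDK4 turned to 0.21 without FRAX-597 2 and to 0.12 without DMSO 3.

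**Figure D3:**
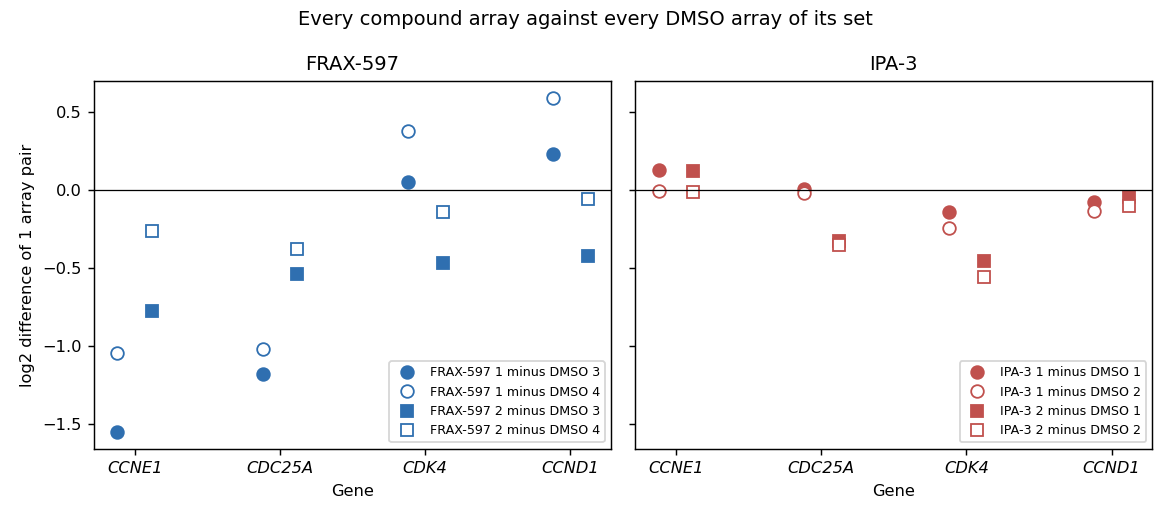
Log2 difference (vertical axis) of every compound array from every DMSO array of its set for the 4 genes, FRAX-597 on the left and IPA-3 on the right; circles and squares are the first and second compound array, and filled and open symbols the 2 DMSO arrays. For FRAX-597 all CCNE1 and CDC25A pairs lie below 0 and those of FRAX-597 1 lie lowest, at -1.55 to -1.02, while CDK4 and CCND1 pairs lie on both sides of 0.

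The spread between replicates differed between the array sets. FRAX-597 1 minus FRAX-597 2 was -0.78 for CCNE1, -0.64 for CDC25A, 0.52 for CDK4 and 0.65 for CCND1, and DMSO 3 minus DMSO 4 was 0.51, 0.16, 0.33 and 0.36 in the same gene order. CDK4 and CCND1 were thus higher on FRAX-597 1 and DMSO 3 than on their replicates, whereas CCNE1 and CDC25A were lower on FRAX-597 1 and higher on DMSO 3. In the first set CDC25A and CDK4 differed between the IPA-3 arrays by amounts like those between DMSO 3 and DMSO 4, or larger, and the other gaps were smaller. IPA-3 1 minus IPA-3 2 was 0.0092 for CCNE1, 0.33 for CDC25A, 0.31 for CDK4 and -0.03 for CCND1, and DMSO 1 minus DMSO 2 lay between -0.13 and -0.02. In the limma fit a gene has 1 spread, estimated over both sets together, and the SE of a FRAX-597 change rests in part on the first set. For each of these genes that SE was smaller than with the second set fitted alone. The SE of the IPA-3 change was larger than with the first set fitted alone.

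After the mean of each array set was subtracted, CCNE1 and CDC25A had similar profiles over the 8 arrays (Pearson r = 0.92, Spearman rho = 0.90), given as a description because arrays of a set share a mean and a scale. The likeness came from the second set (r = 0.98 over 4 arrays) and was not seen in the first (r = -0.21 over 4 arrays). Without FRAX-597 1 and DMSO 3, the arrays furthest from the median of CCNE1, r was 0.56 over 6 arrays. CDK4 and CCND1 were also alike (r = 0.77, rho = 0.83 over 8 arrays; 0.68 in the first set and 0.96 in the second). Without IPA-3 2 and FRAX-597 2 their r was 0.88. The other 4 pairs of genes had r from -0.45 to 0.02 over 8 arrays, although CDC25A and CDK4 were alike within the first set (r = 0.93 over 4 arrays).

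**Figure D4:**
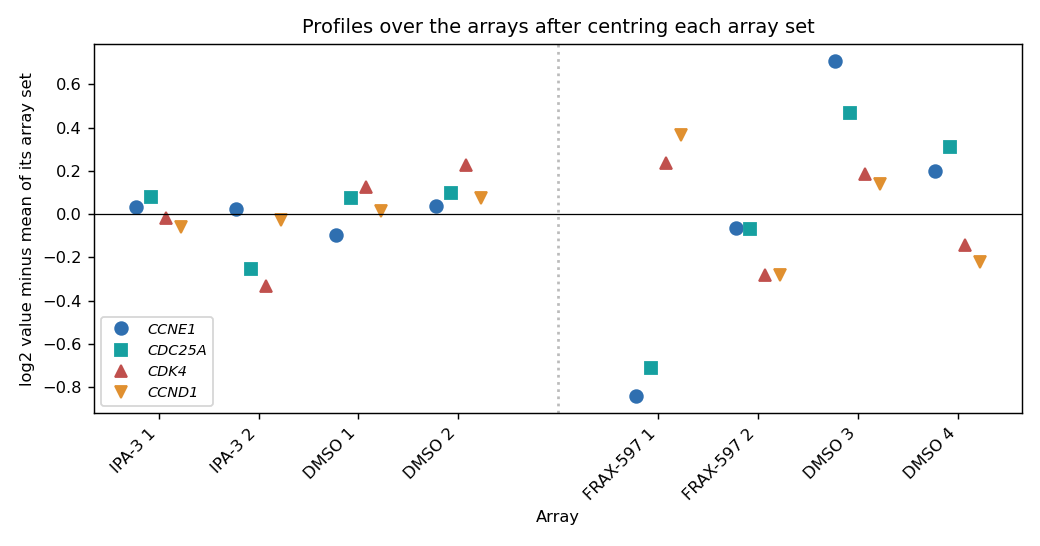
Log2 value minus the mean of its array set (vertical axis) for the 4 genes on each array, with the dotted line between the array sets. CCNE1 and CDC25A lie lowest on FRAX-597 1 and highest on DMSO 3, while CDK4 and CCND1 are above 0 on both of these arrays and below 0 on FRAX-597 2 and DMSO 4.

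The genes most like each of the 4 over the 8 set-centred arrays, among genes with a mean above the lower quartile of all probes, were then listed, 3 for each gene. They are the highest r among 13237 genes, so a high r follows from the choice. The changes given with them come from the same values as r, and shared regulation was not tested. For CCNE1 they were JPH2, a junctophilin (r = 0.98), USP46, a deubiquitinase (r = 0.98), and HSPA2, an HSP70 family member (r = 0.97). Their FRAX-597 changes were -0.27, -0.56 and -0.45. HNRNPAB, an RNA-binding protein (r = 0.99), DSCC1, a subunit of an alternative clamp loader (r = 0.99), and STAM, an endosomal sorting adaptor (r = 0.98), were nearest to CDC25A. Their changes with FRAX-597 were -0.38, -0.53 and -0.12. CDK4 was nearest to the helicase DHX35, the methionine salvage enzyme ENOPH1 and the checkpoint clamp subunit RAD9A (r = 0.99 each). CCND1 was nearest to FEZ1, the mitochondrial chaperone HSPA9 and C12orf75 (r = 0.99 each). None of these 12 genes passed for FRAX-597 (limma adjusted p from 0.354 to 0.998).

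The 4 genes were next set among the genes of the G1 to S transition, 82 genes in 6 lists, the 4 included, of which 64 were measured. No list gene passed for FRAX-597 or IPA-3 over all genes (limma), or for the difference. At an unadjusted p under 0.05, FRAX-597 had 6 genes below and 2 above their controls, and IPA-3 had 4 below and 1 above. CCNE1 and CDC25A were 2 of the 6, and without the 4 genes the counts over 60 measured genes were 4 below and 2 above for FRAX-597 and 4 below and 1 above for IPA-3. Changes were below 0 for 50 of 64 genes with FRAX-597 (median -0.09) and for 44 of 64 with IPA-3 (median -0.10). Without the 4 genes these counts were 47 of 60 and 41 of 60. Over all genes 54.7% of changes were below 0 with FRAX-597 and 55.6% with IPA-3, and the median was -0.02 for each compound. Over all genes the unadjusted shares were 3.61% lower and 4.04% higher for FRAX-597, and 4.11% lower and 3.1% higher for IPA-3.

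The G1 cyclins and CDKs, with the 4 genes among them, had 11 of 12 changes below 0 with FRAX-597 (54.7% of all genes) and a median of -0.19, against -0.02 over all genes. The FRAX-597 count was 8 without DMSO 3 or without FRAX-597 2. With IPA-3 7 of 12 were below 0 (55.6% of all genes), and the median was -0.06, against -0.02 over all genes. CCNE2, the second E-type cyclin, had log2 levels of 8.13 and 9.72 with FRAX-597 against 9.69 and 9.90 in DMSO 3 and DMSO 4. It was low on FRAX-597 1 only, and its change was -0.88 (SE 0.43; limma adjusted p = 0.732). Without FRAX-597 1 it was -0.08 (adjusted p = 0.927), without FRAX-597 2 it was -1.67 (adjusted p = 0.006), and over its 17 alternatives it passed in that one alone. CDK2, the partner of the E-type cyclins, had a change of -0.16 with IPA-3 (SE 0.13), and CCNH, a subunit of the CDK-activating kinase, one of -0.15 (SE 0.12).

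The CDK inhibitors had 2 measured members of 8. CDKN2A, which encodes the CDK4 inhibitor p16, had a change of -0.24 with FRAX-597 and 0.15 with IPA-3 (SE 0.14 each). Its DMSO levels of 4.02 and 4.24 in the first set were close to the arrays' lower quartiles (4.15 in DMSO 1 and 4.14 in DMSO 2). It is therefore not shown to be above background there. In DMSO 3 and DMSO 4 its level was 5.49 on each array, above their lower quartiles of 4.64 and 4.73. Lying above that quartile does not by itself show expression. CDKN3, a phosphatase that acts on CDK2, had changes of -0.06 with FRAX-597 and 0.14 with IPA-3 (SE 0.20 each). Neither passed for either compound.

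Among the RB family and E2F factors, 9 of 15 lay below 0 with FRAX-597 and 9 of 15 with IPA-3, with medians of -0.06 for FRAX-597 and -0.09 for IPA-3. These counts are near the shares of all genes below 0, 54.7% for FRAX-597 and 55.6% for IPA-3. E2F7, a repressor that E2F itself induces, had log2 levels of 8.48 and 8.77 with FRAX-597 against 9.08 and 9.23 in DMSO 3 and DMSO 4. Both FRAX-597 arrays were the lower, and the change was -0.53 (SE 0.13; limma adjusted p = 0.291). The related repressor E2F8 had levels of 8.58 and 9.44 with FRAX-597 against 9.43 and 9.49 in DMSO 3 and DMSO 4, and its change of -0.45 (SE 0.24; adjusted p = 0.778) was -0.88 without FRAX-597 2 (adjusted p = 0.0211) and -0.022 without FRAX-597 1 (adjusted p = 0.981). E2F8 was low on FRAX-597 1 only. LIN37, a subunit of the DREAM complex, had a change of 0.23 with FRAX-597 (SE 0.14). The smallest p-values with IPA-3 were those of MYBL2, a factor that works with DREAM subunits, at -0.22 (SE 0.11), and the DREAM subunits LIN9 at -0.17 (SE 0.10) and LIN54 at 0.18 (SE 0.11), none passing.

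The turnover and checkpoint regulators had 10 of 14 below 0 with each compound, with medians of -0.04 for FRAX-597 and -0.07 for IPA-3, beside 54.7% of all genes for FRAX-597 and 55.6% for IPA-3. Without FRAX-597 1 the FRAX-597 count was 7 of 14 and the median turned to 0.023, and without FRAX-597 2 they were 11 of 14 and -0.14. PIM1, a kinase whose known substrates include CDC25A, had log2 levels of 8.07 and 7.68 with FRAX-597 against 7.18 and 7.45 in DMSO 3 and DMSO 4. With IPA-3 it had 7.42 and 7.19 against 6.86 and 6.65 in DMSO 1 and DMSO 2. Each compound's arrays lay above its controls, by changes of 0.56 with FRAX-597 (SE 0.18; limma adjusted p = 0.459) and 0.55 with IPA-3 (SE 0.18; adjusted p = 0.591). CUL1, the scaffold of the SCF ubiquitin ligases that degrade cyclin E, had a change of -0.65 with FRAX-597 (SE 0.19; adjusted p = 0.407) and -0.24 with IPA-3. CCNF, an F-box protein, had a change of -0.37 with FRAX-597 (SE 0.18), and the checkpoint kinase CHEK2 one of -0.34 with IPA-3 (SE 0.12; adjusted p = 0.615). CUL1 passed for FRAX-597 (adjusted p = 0.0332) and so did E2F7 (adjusted p = 0.043) with the replicate block in the second set, whose pairs were taken from these same values.

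Most E2F-driven replication genes lay below their controls with both compounds, though none passed with all arrays. With FRAX-597 14 of 15 were below 0 and the median was -0.26, and with IPA-3 13 of 15 were below 0 with a median of -0.20, beside 54.7% of all genes for FRAX-597 and 55.6% for IPA-3. At an unadjusted p under 0.05 there were 2 for FRAX-597 and 3 for IPA-3, all lower, beside 3.61% of all genes for FRAX-597 and 4.11% for IPA-3. The FRAX-597 count was 8 without DMSO 4, 5 without FRAX-597 2, and 1 without FRAX-597 1, and without DMSO 3 it was 1 lower and 1 higher. The IPA-3 count was 2 without DMSO 1 and 1 without DMSO 2, IPA-3 1 or IPA-3 2. Without FRAX-597 2 limma called 1 of the 15, RRM2, a ribonucleotide reductase subunit. MCM3, a subunit of the replicative helicase, had log2 levels of 10.41 and 10.32 with IPA-3 against 10.90 and 10.84 in DMSO 1 and DMSO 2, a change of -0.50 (SE 0.12; limma adjusted p = 0.472). With FRAX-597 its levels were 10.75 and 10.92 against 11.24 and 11.07 in DMSO 3 and DMSO 4, a change of -0.32 (SE 0.12; adjusted p = 0.57). Both arrays of either compound lay below their controls. MCM4, of the same helicase, had changes of -0.29 with FRAX-597 and -0.31 with IPA-3 (SE 0.12 each). PCNA, the sliding clamp of DNA polymerases, had one of -0.37 with FRAX-597 (SE 0.14), and CDC45, a helicase cofactor, one of -0.29 with IPA-3 (SE 0.12). Without FRAX-597 1 the FRAX-597 median was -0.24 with 13 of 15 below 0, without FRAX-597 2 it was -0.25 with 12, without DMSO 4 it was -0.37 with 13, and without DMSO 3 it was -0.15 with 11.

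The other CDC25 phosphatases and mitotic cyclins served to set CDC25A beside its relatives. CDC25B had changes of -0.0050 with FRAX-597 and -0.10 with IPA-3 (SE 0.13 each). CDC25C, which acts at entry to mitosis, had log2 levels of 7.52 and 7.53 with FRAX-597 against 7.17 and 7.17 in DMSO 3 and DMSO 4. Both FRAX-597 arrays lay above their controls, by a change of 0.35 (SE 0.11; limma adjusted p = 0.442), while its IPA-3 change was -0.23 (SE 0.11; adjusted p = 0.71). CDK1 had a change of -0.19 and CCNB1 one of -0.13 with FRAX-597, and PLK1 had one of -0.27 and CCNB2 one of -0.22 with IPA-3. Of the 6 genes, 4 lay below 0 with FRAX-597 (median -0.0068) and 5 with IPA-3 (median -0.21), beside 54.7% of all genes for FRAX-597 and 55.6% for IPA-3. The count for FRAX-597 was 2 without DMSO 3 or without FRAX-597 1.

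**Figure D5:**
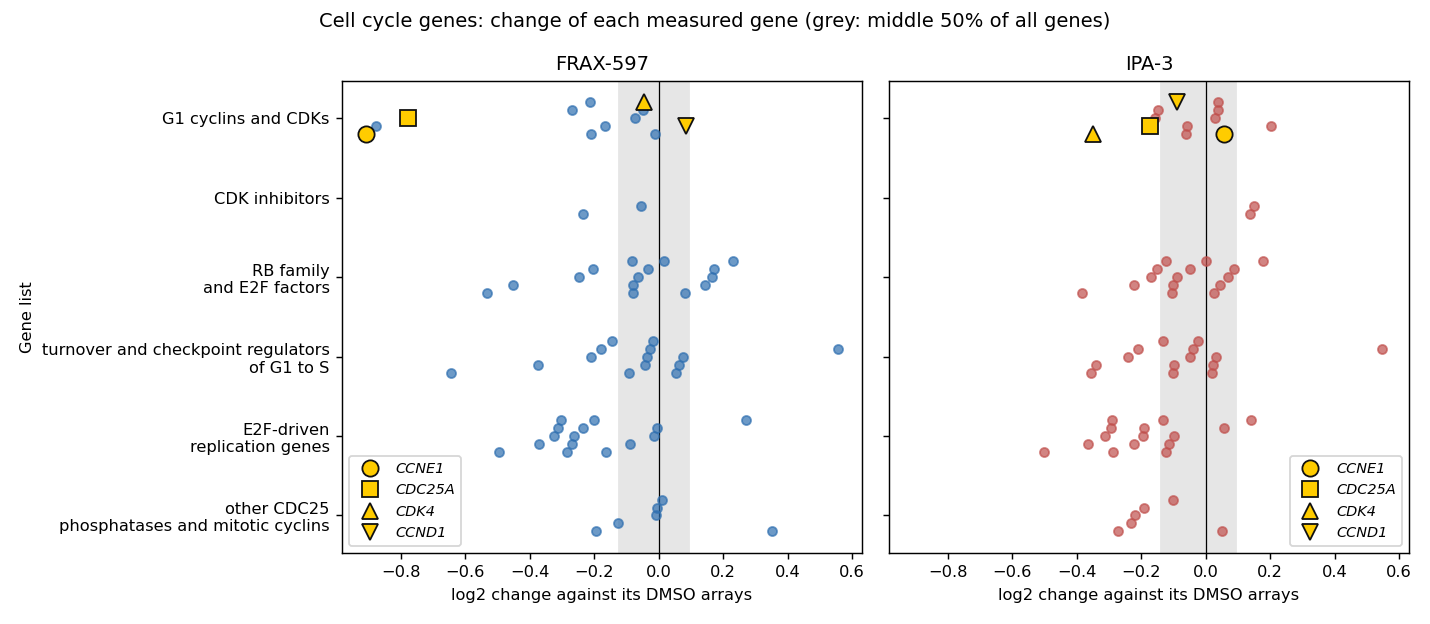
Log2 change against its own DMSO arrays (horizontal axis) of each measured gene of the 6 lists, FRAX-597 on the left and IPA-3 on the right; yellow symbols are CCNE1, CDC25A, CDK4 and CCND1, and the grey band holds the middle 50% of all genes. CCNE1 (-0.91) and CDC25A (-0.78) lie at the far left with FRAX-597, next to CCNE2 (-0.88), and the replication genes lie mostly left of 0 with both compounds.

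Between the DMSO pairs CDK4 and CCND1 differed by about as much as all genes did, and CCNE1 and CDC25A by less. DMSO 3 and 4 minus DMSO 1 and 2 was 0.23 for CCNE1, 0.33 for CDC25A, 0.45 for CDK4 and 0.51 for CCND1, and the median over all genes was 0.48. Relative to that median the values were -0.25 for CCNE1, -0.15 for CDC25A, -0.03 for CDK4 and 0.03 for CCND1. DMSO 3 minus DMSO 4 alone was 0.51 for CCNE1 and 0.16 for CDC25A, and their distances from the median do not exceed these gaps. DMSO 1 minus DMSO 2 was -0.13 for CCNE1 and -0.02 for CDC25A, and the distances are larger than those gaps. With the 4 DMSO arrays pooled, which ignores this shift, CDK4 had a change of 0.18 with FRAX-597, against -0.04 with its own controls.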

How the data were processed

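Total RNA of 8 THP-1 samples was labelled with biotin and hybridised to 1-colour Affymetrix arrays, per the labels. The deposited table holds the authors' log2 expression values, made with Transcriptome Analysis Console and Affymetrix Expression Console as far as the submitters' processing notes tell. Their summarisation, normalization, centring and genome build are not given in the sources used here. Of 53617 probes, 16098 had 1 gene symbol in the platform annotation, 0 had several and 37519 had none, and all 16098 matched RefSeq by gene identifier. For 779 genes with several probes the one with the highest mean was kept. The gene set is 14884.

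limma 3.58.1 (R 4.3.3; lmFit, eBayes) was fitted to all genes with 4 groups, namely FRAX-597, IPA-3, DMSO 3 and 4, and DMSO 1 and 2. Calls used a Benjamini-Hochberg adjusted p under 0.05. The fit was run on simulated data with independent noise and 1 spread per gene over both array sets. That simulation held no correlated replicates and no difference in spread between the sets, so it cannot show how the calls behave with either. The 4 genes, the lists and the controls of each compound were chosen with earlier results of these data known. From each list, the text names up to 3 genes per compound with the smallest p and any gene called. MCM6 and RRM2 were chosen after their values were seen, and CDC25B was added as the remaining relative of CDC25A. For each of the 4 genes, the 3 most correlated genes are named. Alternatives were other controls, array sets fitted alone, a replicate block, normalizations, probe choices, a filter on low values, an intensity trend and leaving out each array.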

Additional observations from a re-analysis of the deposited data

Results flagged for a closer look

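Among the 64 measured G1 to S genes, 4 had both FRAX-597 arrays on one side of their DMSO arrays and both IPA-3 arrays on the other, which is 6.25% of them, near the 5.91% of all genes with that pattern. For E2F7 the FRAX-597 change minus the IPA-3 change was -0.60 (SE 0.18; limma adjusted p = 0.681), for RRM2 -0.64 (SE 0.31; adjusted p = 0.839), for MCM6 0.56 (SE 0.20; adjusted p = 0.772) and for CDC25C 0.58 (SE 0.15; adjusted p = 0.596), so none of the differences passed. RRM2 had log2 levels of 7.88 and 8.64 with FRAX-597 against 8.78 and 8.72 in DMSO 3 and DMSO 4, and 8.72 and 8.61 with IPA-3 against 8.52 and 8.52 in DMSO 1 and DMSO 2. MCM6 had 10.16 and 10.03 with FRAX-597 against 10.00 and 9.64 in DMSO 3 and DMSO 4, and 9.55 and 9.39 with IPA-3 against 9.77 and 9.75 in DMSO 1 and DMSO 2.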

How the results depend on the processing

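The labels number DMSO samples but not those of the compounds, so they pair no samples. A replicate block taken from the values (DMSO 3 with FRAX-597 1 and DMSO 4 with FRAX-597 2, whose deviations correlated at 0.65 across genes, against -0.059 in the first set, which was not blocked) called 202 genes for FRAX-597, 72 for IPA-3 and 38 for the difference, where the reported counts were 23, 5 and 2. Of the 4 genes it called 0, with adjusted p = 0.153 for CCNE1 and 0.114 for CDC25A with FRAX-597. Array sets fitted alone gave 0 for FRAX-597 (limma; 606 at an unadjusted p under 0.05) and 96 for IPA-3. Pooled DMSO arrays gave 5 for FRAX-597 and 0 for IPA-3 (limma; 843 at an unadjusted p under 0.05), and every probe as its own feature gave 6 and 0 (limma; 2946 and 3416 at an unadjusted p under 0.05). IPA-3 had 2 calls with quantile normalization and 8 with an intensity trend. Leaving out single arrays gave 2 to 227 calls for FRAX-597, 0 to 24 for IPA-3 and 0 to 27 for the difference.

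CCNE1 with FRAX-597 ranged from -1.30 to -0.52 over the left-out arrays and from -0.94 to -0.79 over the other alternatives, and CDC25A from -1.10 to -0.46 and from -0.81 to -0.61. Each passed only without FRAX-597 2. CDK4 ranged from -0.30 to 0.21 and CCND1 from -0.24 to 0.41 with FRAX-597 over the left-out arrays, and the differences from -1.35 to -0.58 for CCNE1, -0.92 to -0.28 for CDC25A, 0.0475 to 0.565 for CDK4 and -0.15 to 0.50 for CCND1. With IPA-3, CCNE1 ranged from -0.0095 to 0.12, CDC25A from -0.34 to -0.0077 and CDK4 from -0.51 to -0.19. Pooled controls turned CCNE1 with IPA-3 to -0.060 and CDK4 with FRAX-597 to 0.18. They also turned CDKN2A (-0.53), CDKN3 (-0.22), LIN54 (-0.0075), CCNH (0.050) and CDC25C (0.023) with IPA-3, and CDKN2A (0.44) and CDKN3 (0.30) with FRAX-597. Left-out arrays gave CDKN2A with IPA-3 a range of -0.0084 to 0.31, and with FRAX-597 gave CDKN3 one of -0.35 to 0.23 and CCNB1 one of -0.31 to 0.054. Among the other changes of the 4 genes, those of CCNE1 and CDC25A with FRAX-597, of CDC25A, CDK4 and CCND1 with IPA-3, and the differences of CCNE1, CDC25A and CDK4, the sign was the same in every alternative run. Counts of list members below 0 without single arrays were added after the data were examined. The cause of these shifts was not tested.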
